A study of Saccharomyces cerevisiae with 21 samples.

Results

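The 69 genes described here are the budding yeast genes for proteins of the mitochondrial ribosome that carry a systematic name of that kind: MRP, MRPL, MRPS or RSM followed by a number, together with IMG1 and IMG2. They were taken by symbol from a table of 7123 features with values, and all 69 were found in the R64 genome annotation. By textbook assignment 28 belong to the small subunit and 40 to the large subunit. The remaining gene, MRP8, carries the name but is not known as a ribosomal protein. RNA was sequenced from 21 cultures of BY4741, a haploid laboratory strain, and of strains made from it, in 2 series. Series 1 held BY4741ΔP (written ΔP, n = 3), Tpho84-Tcyc1 (n = 3) and BY4741 (cultures 1 to 3). Series 2 held BY4741ΔU (written ΔU, n = 3), ume6Δ, which lacks the gene of a DNA-binding repressor of meiotic and metabolic genes (n = 3), pho4Δ, which lacks the activator of phosphate-responsive genes (n = 2), pho84Δ, which lacks the high-affinity phosphate transporter (n = 2), and BY4741 (cultures 4 and 5). The study concerns transcription of phosphate-regulated loci, and the alterations behind the names ΔP, ΔU and Tpho84-Tcyc1 are not given in the labels. All cultures were grown at 30 °C with 7.2 mM phosphate and 50 mM KCl and frozen at an absorbance of 0.5. Those of a strain came from a single overnight culture, and the p-values below therefore reflect only the variation among cultures started from it.

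The mitochondrial ribosome translates the few proteins encoded by mitochondrial DNA, most of them subunits of the respiratory chain and of the ATP synthase. Apart from Var1, which is made inside the organelle, its yeast proteins are encoded in the nucleus, made on cytosolic ribosomes and imported. Many of their mRNAs carry a site for Puf3, an RNA-binding protein that acts on the stability, location and translation of messages for mitochondrial proteins. VAR1 was listed at 0 reads in all 21 libraries, as were all 31 rows of the mitochondrial genome in the table. Whether such transcripts were captured and counted is not given in the sources used here, so nothing is read from VAR1 and the values below concern the nuclear genes.

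The site bound by Puf3, searched as TGTANATA on the transcribed strand within 200 bases after the stop codon, was present in 67 of the 69 genes (97.1%), against 844 of 6007 annotated genes (14.1%). The genes without it were RSM22 and MRP8. In 13 of the 69 the site occurred more than once, and the first site began 8 to 139 bases after the stop codon, with a median of 51. The windows below, read from R64 and written 5′ to 3′ with the site in capitals, show the genes whose level differed most in ΔU and then 3 genes that hold a site and differed least there.
RSM19, chrXIV:695024-695051, minus strand: gggatctagTGTATATAgatttctagat
MRPL44, chrXIII:720854-720883, minus strand: acaagcaagccTGTAAATAatatatatgca
IMG2, chrIII:240053-240082, minus strand: aataattgtcaTGTATATAtattaattaaa
MRP2, chrXVI:876214-876243, minus strand: ggatacgcactTGTAAATAaatacatgata
MRPL39, chrXIII:251207-251236, minus strand: ttcatttatccTGTAAATAagtaatggata
MRPL3, chrXIII:323054-323083, plus strand: gtttgccatttTGTAGATAgagaactcctt
MRPL37, chrII:741638-741667, plus strand: tttggtatcctTGTAAATAaatatgtgtgt
MRPL17, chrXIV:171334-171363, minus strand: cgtcaatcacaTGTAAATAtcattaaatga
The same 8 letters, TGTAAATA, stood in MRPL44, MRP2 and MRPL39 and also in MRPL37 and MRPL17, so that the letters of the site alone did not separate the genes at either end.

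Depth was 10.98 to 49.8 Mreads per library (megareads), with a median of 17.9, and every member had at least 1 RPM (reads scaled to a fixed library total) in every library. The deleted genes were nearly without reads in their strains: UME6 had 4, 0 and 2 reads in ume6Δ, PHO4 had 1 and 2 reads in pho4Δ, and PHO84 had 2 reads in each pho84Δ library. Differences are given as limma estimates of log2(RPM + 1) with their standard errors, and a gene is said to have risen or fallen only at an adjusted p under 0.05 (Benjamini-Hochberg over all genes tested).

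Set per kilobase of coding length and averaged over all 21 libraries, the levels of the members spanned about an order of magnitude. The highest was MRP8 at 269.5 RPM per kb. Among the ribosomal proteins the highest were MRPS12, the counterpart of bacterial S12 at the decoding centre (181.8 RPM per kb), MRPL31 (174.1), MRPL36 (167.7) and MRPL50 (161.8). RSM22, a methyltransferase-like protein of the small subunit, was the lowest at 28.81 RPM per kb, followed by RSM23 (40.55), MRPL4 (47.82), MRPL35 (48.51) and MRP13 (48.79). In the R64 annotation 3 members overlap another listed feature (MRP4 with YHL005C, MRPL19 with YNL184C and MRPL51 with YPR099C), and since the strand setting of the counting is not given in the sources used here, their levels may hold reads of that partner. The members lie on 14 chromosomes, most of them alone; MRPS12 and RSM19 are neighbours on chromosome XIV with 229 bases between their coding sequences.

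The summed level of the 69 genes was close to that of BY4741 in each strain except ΔU. In ΔU it was 5312, 5263 and 5258 RPM, against 3690 and 3531 RPM in BY4741 of the same series, a ratio of the means of 1.46. All 3 ΔU cultures stood above every other culture of both series. The sums were 3545, 3450 and 3526 RPM in ume6Δ (ratio to BY4741 0.971), 3432 and 3457 RPM in pho4Δ (0.954) and 3394 and 3368 RPM in pho84Δ (0.937). In series 1 the ΔP cultures gave 3906, 4012 and 3674 RPM (0.994) and the Tpho84-Tcyc1 cultures 3975, 4344 and 4089 RPM (1.06), against 3893, 3883 and 3890 RPM in BY4741.

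**Figure D1:**
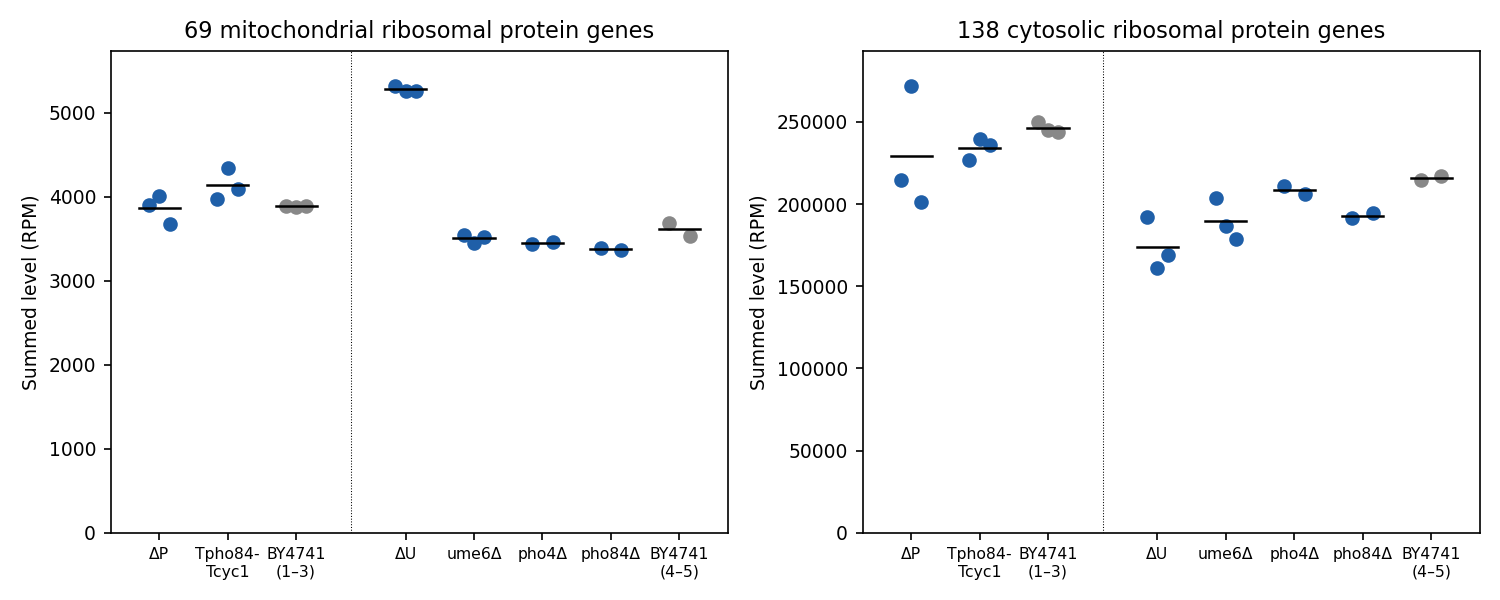
Summed RPM of the 69 mitochondrial ribosomal protein genes (left) and of the 138 cytosolic ribosomal protein genes (right) in each library; points are cultures, horizontal lines are group means and the dotted line parts the 2 series. The ΔU cultures were the highest of all on the left, at 5258 to 5312 RPM. On the right they lay below BY4741 of their series, as did those of ume6Δ, pho4Δ and pho84Δ.

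In ΔU nearly the whole set was higher than in BY4741. Of the 69 genes 66 rose (95.7%) and 0 fell, beside 36.5% of all 5840 genes tested that rose and 13.2% that fell (49.7% in either direction). The median difference of the members was 0.56, against 0.15 over all genes tested, and all 69 differences were above 0, from 0.15 to 1.05. Small-subunit genes rose in 27 of 28 cases with a median of 0.55, and large-subunit genes in 38 of 40 cases with a median of 0.56. Members with a bacterial counterpart rose in 41 of 41 cases and those found only in mitochondria in 23 of 25, with medians of 0.56 in both classes.

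The largest rise was that of RSM19, the counterpart of bacterial S19 in the head of the small subunit. RSM19 had 38.9, 35.3 and 38.0 RPM in ΔU, against 16.0 and 19.1 RPM in BY4741, a difference of 1.05 ± 0.15 (SE, adjusted p = 8.81e-05, limma). The groups did not overlap, and the ΔU cultures lay close together. MRPL44, a large-subunit protein without a bacterial counterpart, had 45.2, 43.6 and 45.1 RPM in ΔU, against 20.4 and 22.3 RPM in BY4741 (1.03 ± 0.09, adjusted p = 2e-06, limma). IMG2, named for its need in keeping the mitochondrial genome intact, had 38.6, 40.5 and 39.4 RPM in ΔU, against 23.9 and 17.3 RPM in BY4741 (0.92 ± 0.12). In IMG2 the BY4741 cultures lay farther from each other than the ΔU cultures did. MRP2, the counterpart of bacterial S14, had 74.8, 57.5 and 64.3 RPM in ΔU, against 35.6 and 37.5 RPM in BY4741 (0.82 ± 0.11). MRPL39, the counterpart of bacterial L33 and the shortest member, had 39.8, 33.4 and 42.6 RPM in ΔU, against 22.9 and 20.0 RPM in BY4741 (0.82 ± 0.12). The adjusted p was 4.69e-05 for IMG2, 4.33e-05 for MRP2 and 6.91e-05 for MRPL39 (limma).

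Proteins of known place or origin moved with the rest of their subunit, by different amounts. In the small subunit MRP1 rose by 0.70, MRP51, which acts with the leaders of mitochondrial mRNAs, by 0.37, MRPS28, the counterpart of bacterial S15, by 0.47, RSM24 by 0.40 and RSM23, the counterpart of human DAP3, by 0.24. MRP1 had 117, 119 and 111 RPM in ΔU, against 76.3 and 65.6 RPM in BY4741, and RSM23 had 61.5, 63.4 and 62.0 RPM, against 56.8 and 49.0 RPM. The gap between the groups was thus much wider for MRP1 than for RSM23. In the large subunit IMG1, the counterpart of bacterial L19, rose by 0.76, MRPL36, the counterpart of bacterial L31, by 0.65, MRP20, the counterpart of L23 beside the exit of the peptide tunnel, by 0.44, MRP7, the counterpart of L27 near the peptidyl transferase centre, by 0.37 and MRPL3 by 0.23. MRP8 rose by 0.72 as well, with 258, 250 and 274 RPM in ΔU, against 165 and 150 RPM in BY4741. The call was lost for RSM23 and MRPL3 when libraries were rescaled by TMM, edgeR's trimmed mean of M-values (adjusted p = 0.303 and 0.217, limma). The call of RSM23 was also lost without BY4741 culture 5 (adjusted p = 0.276) or ΔU culture 2 (0.061), that of MRPL3 without BY4741 culture 4 (0.0693) and that of MRP20 without BY4741 culture 5 (0.0816).

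The 3 members that were not called in ΔU were MRPL17, RSM22 and MRPL37. MRPL17 had 49.7, 60.4 and 56.8 RPM in ΔU, against 49.6 and 50.0 RPM in BY4741 (0.15 ± 0.08, adjusted p = 0.148, limma). RSM22 had 59.7, 66.2 and 51.9 RPM in ΔU, against 50.1 and 55.0 RPM in BY4741 (0.17 ± 0.09, adjusted p = 0.152, limma). MRPL37 had 28.3, 27.3 and 22.2 RPM in ΔU, against 20.4 and 23.9 RPM in BY4741 (0.21 ± 0.12, adjusted p = 0.153, limma). In RSM22 and MRPL37 the cultures of the groups overlapped, and in MRPL17 they overlapped at the lower end.

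**Figure D2:**
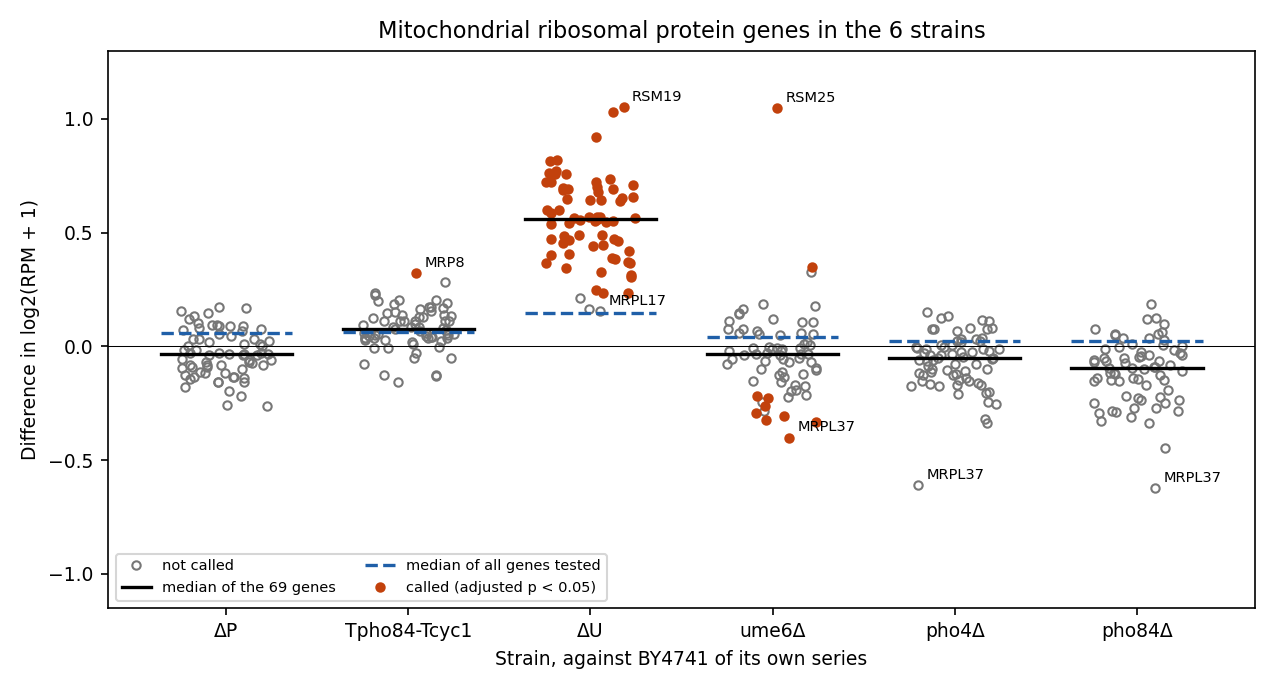
Difference in log2(RPM + 1) between each strain and BY4741 of its own series; each point is 1 of the 69 genes, filled where it was called, the solid line is their median and the dashed line the median of all genes tested. In ΔU all points lie above 0 around a median of 0.56, while in the other 5 strains the medians lie between -0.09 and 0.08.

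The scaling of the libraries moved the whole distribution in ΔU. Rescaling by TMM lowered the median of all genes tested to 0.015, and the calls over all genes became 1358 higher and 1396 lower in place of 2133 higher and 771 lower. Under that scaling 59 of the 69 members rose and 0 fell, with a median of 0.42, and edgeR on the recovered reads gave 59 and 0 with 0.43. The direction of the set thus did not turn with the scaling, while the number of calls was lower. RPM are shares of a library, so a change in all RNA of a cell cannot be told apart from none.

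**Figure D3:**
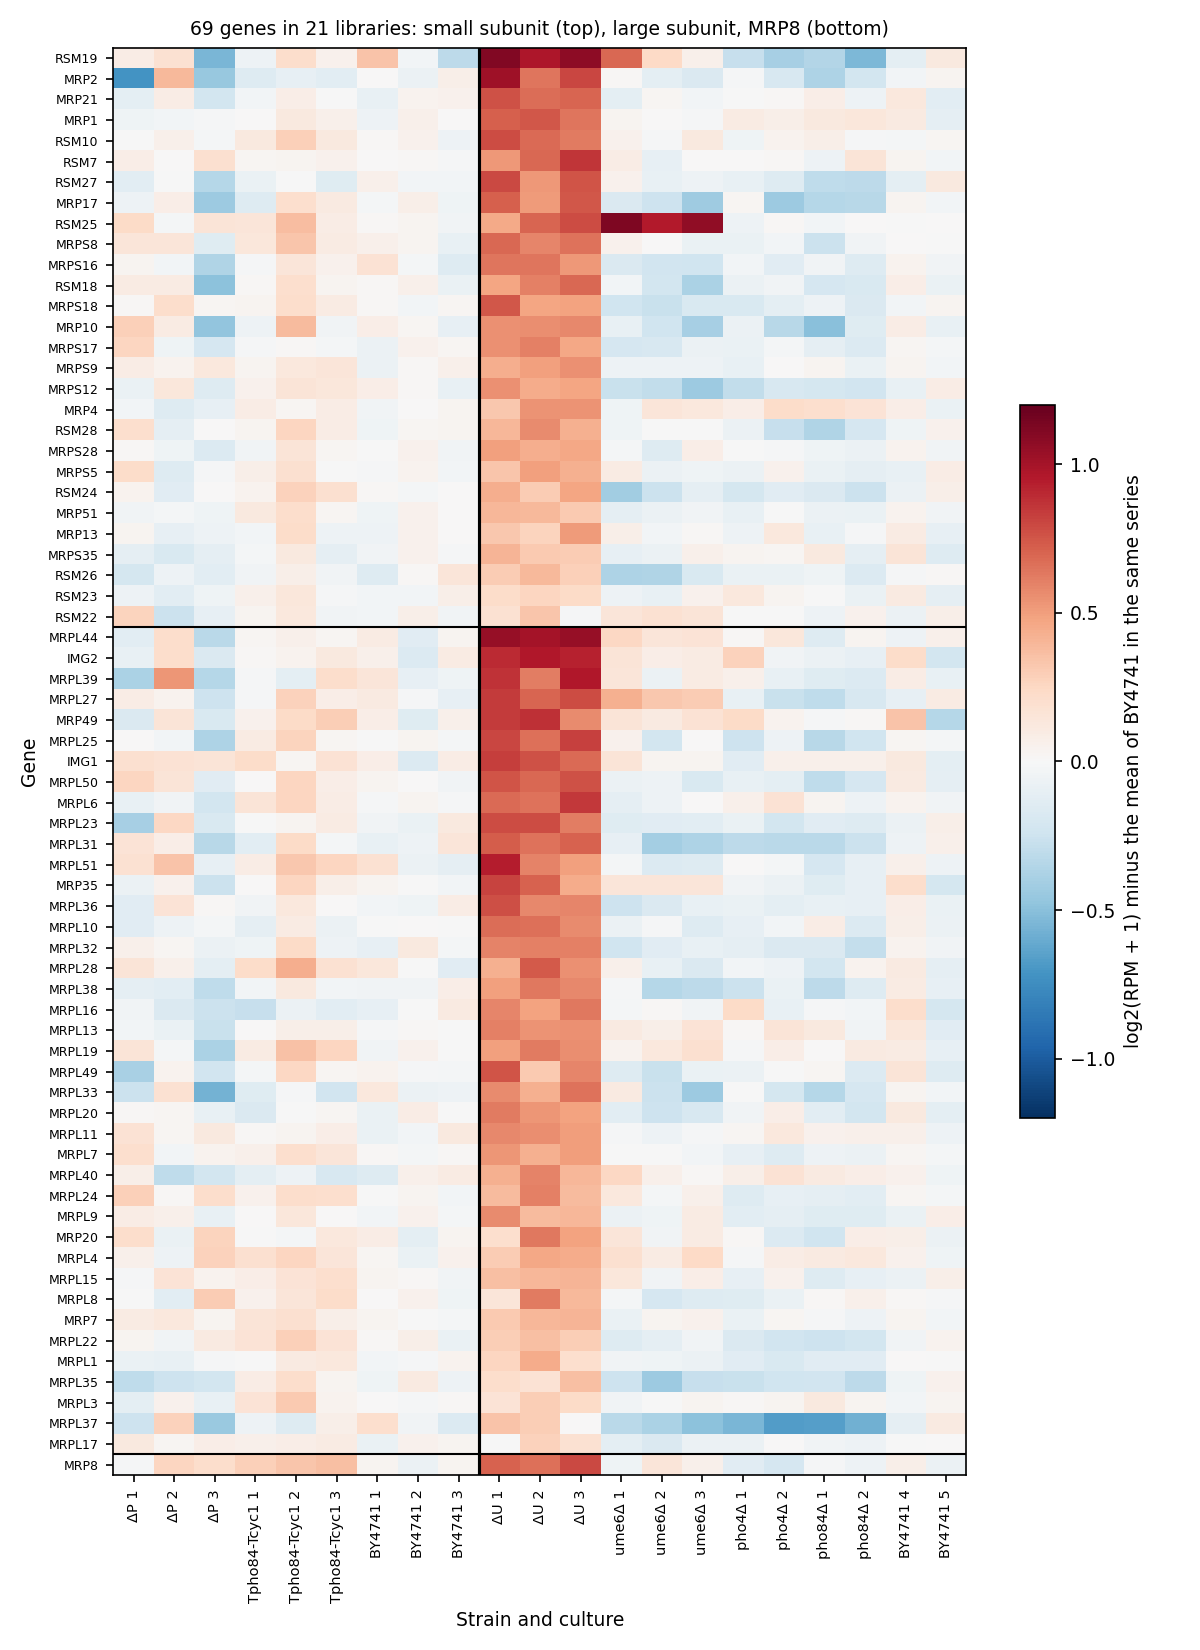
Each member (rows, sorted by the ΔU difference within the small subunit, the large subunit and MRP8) in each of the 21 libraries (columns), coloured by log2(RPM + 1) minus the mean of BY4741 in the same series; the vertical line parts the series. The 3 ΔU columns are red over almost all rows, and RSM25 is the reddest row of the 3 ume6Δ columns.

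Within ΔU the size of the difference followed the length of the coding sequence. Over the 69 members Spearman's rho between coding length and the log2 difference was -0.68, against -0.16 over 5569 other genes; this is a description across genes that share libraries, and genes are not replicates. The median difference was 0.67 for the 12 members of up to 400 coding bases and 0.65 for the 19 of 401 to 600. It was 0.56 for the 14 of 601 to 800, 0.43 for the 14 of 801 to 1000 and 0.36 for the 10 longer ones. Other genes of the same classes had medians of 0.27, 0.23, 0.22, 0.18 and 0.10, so that the members stood above them in each class. MRPL37 at 318 coding bases went against the trend, since it is among the shortest members and was not called.

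Length moved with the controls too. Between BY4741 cultures 4 and 5 and BY4741 cultures 1 to 3 rho was 0.56 over the members and 0.51 over 5590 other genes, and 4 members were higher and 16 lower in cultures 4 and 5, beside 18.2% of all 5927 genes tested that were higher and 18.9% lower (37.1% in either direction). The 5 lowest were MRPL39 (-1.04), RSM19 (-0.99), MRPL44 (-0.79), MRPL33 (-0.70) and MRP2 (-0.69). The highest were MRPL32 (0.43), a protein that the m-AAA protease of the inner membrane matures before it joins the ribosome, MRPL22 (0.34), RSM24 (0.27) and MRP51 (0.19). RSM19 had 45.7, 35.0 and 28.5 RPM in BY4741 of series 1, a range that holds the level in ΔU. This comparison and that of ΔU share BY4741 cultures 4 and 5 with opposite sign, so a gene low in those cultures is low here and high in ΔU without any further change. The series and the cultures cannot be told apart in this comparison. For ume6Δ minus ΔU, which uses no BY4741 culture, rho was 0.72 over the members and 0.2 over 5569 other genes. The median of the members there was -0.78 at up to 400 coding bases and -0.37 at over 1000. What part length has in the ΔU values was not tested.

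Against the BY4741 cultures of series 1, the ΔU levels gave 57 members higher and 1 lower, beside 42.1% of all genes tested higher and 19.6% lower. The median of the members was 0.43, against 0.16 over all genes tested. The lower one was MRPL37 (-0.35, adjusted p = 0.0403, limma). Of the 66 members that rose against series 2, 9 were not called against series 1. Their differences there were 0.06 for RSM19 (adjusted p = 0.772), 0.12 for MRP2 (0.544), 0.23 for MRP10, 0.13 for MRP4, 0.18 for MRPL40 and 0.09 for MRPL8. MRPL39 (-0.22, adjusted p = 0.252), MRPL33 (-0.15, 0.384) and MRPS12 (-0.05, 0.61) changed sign (limma). The calls of these 9 genes thus depended on which BY4741 cultures served as controls. MRPL44, IMG2, MRP1 and IMG1 were higher in ΔU against either set. All 9 were also lower in ume6Δ than in ΔU, a comparison without BY4741 cultures. RSM19 had 28.8, 20.8 and 18.3 RPM in ume6Δ, 14.3 and 13.0 RPM in pho4Δ and 13.5 and 11.7 RPM in pho84Δ. Against series 1 a difference between strains cannot be told apart from a difference between series.

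**Figure D4:**
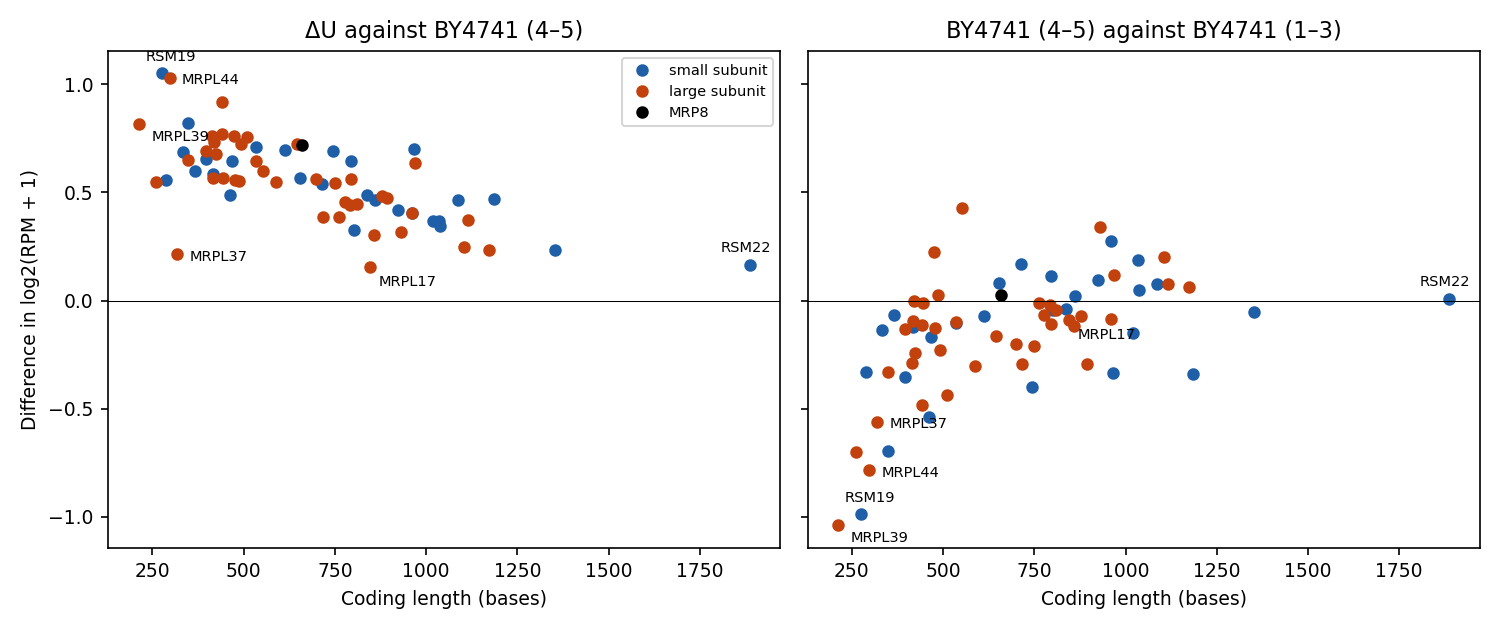
Difference in log2(RPM + 1) against coding length in bases for the 69 members; left, ΔU against BY4741 cultures 4 and 5; right, BY4741 cultures 4 and 5 against BY4741 cultures 1 to 3. Short members such as RSM19 and MRPL39 lie highest on the left (1.05 and 0.82) and lowest on the right (-0.99 and -1.04); both panels use BY4741 cultures 4 and 5, with opposite sign.

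Other genes of the same machinery are read here against the 36.5% of all genes tested that rose in ΔU (median 0.15). Of 12 mitochondrial ribosomal proteins with symbols of another kind, 10 rose and 0 fell (83.3% higher, median 0.48), among them PET123 (0.64), MRX14 (0.81) and RTC6 (0.79). Of 13 mitochondrial tRNA synthetases 8 rose and 0 fell (61.5% higher, median 0.40), and of 22 translation factors and mRNA-specific activators 12 rose and 1 fell (54.5% higher, median 0.33). The elongation factor gene MEF1 (0.49) and the release factor gene MRF1 (0.60) rose, and MEF2, which acts in ribosome recycling, fell by 0.81. Of 17 genes for assembly of the mitochondrial ribosome or maturation of its RNA 5 rose and 0 fell (29.4% higher, median 0.15), no more than over all genes, and under TMM scaling this became 2 and 3 with a median of 0.015.

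Nuclear genes of the respiratory chain and ATP synthase did not move as a block in ΔU. Of 34 listed, 14 rose and 6 fell (median 0.12), and with TMM scaling 7 rose and 11 fell (median -0.02). Cytosolic ribosomal protein genes went the other way from the mitochondrial set in ΔU. Of 138 tested, 83 fell (60.1%, beside 13.2% of all genes tested) and 3 rose, with a median of -0.29. With TMM scaling 105 fell and 1 rose, beside 23.9% of all genes tested that fell. They were lower in ume6Δ too, where 58 fell (42%) and 6 rose (median -0.22), beside 11.3% of all genes tested lower and 23.1% higher. In pho4Δ and pho84Δ 0 were called (medians -0.06 and -0.20). PUF3 mRNA stood at 74.9, 77.4 and 78.7 RPM in ΔU, against 61.3 and 55.4 RPM in BY4741 (0.40 ± 0.07, adjusted p = 0.000343, limma). PUF3 also rose in ume6Δ, at 74.7, 75.6 and 76.4 RPM (0.37), where the median of the 69 members was -0.03. The controls differed for PUF3 by more than ΔU did from its own, since BY4741 of series 1 had 24.2, 20.3 and 35.0 RPM. Among genes outside the 69, the 758 with a TGTANATA site had a median of 0.21 in ΔU and 46.2% rose, against 0.13 and 34.9% for the 4811 without it.

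In ume6Δ the set stayed near the level of BY4741, with RSM25 as the exception. Of the 69 members 2 rose and 8 fell, beside 23.1% of all genes tested that rose and 11.3% that fell (34.4% in either direction), and the median difference was -0.03, against 0.04 over all genes tested. RSM25, a small-subunit protein without a bacterial counterpart at chrIX:187990-188784, had 88.7, 78.9 and 85.4 RPM in ume6Δ, against 40.0 and 40.4 RPM in BY4741 (1.05 ± 0.09, adjusted p = 5.36e-07, limma). All 3 ume6Δ cultures lay far above both controls and above every other culture of both series.

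RSM25 is the only member on chromosome IX. On that chromosome 201 of 205 genes tested (98%) rose in ume6Δ, with a median of 1.04, while the medians of the other chromosomes lay between 0.00 and 0.08. Genes of chromosome IX took 4.83%, 4.84% and 4.84% of all reads in ume6Δ, against 2.40% and 2.42% in BY4741. Its neighbours behaved likewise: LYS12, which encodes an enzyme of lysine synthesis, had 1860, 1870 and 1900 RPM in ume6Δ, against 1110 and 1200 RPM in BY4741, and YIL092W had 61.7, 66.3 and 67.9 RPM, against 26.9 and 25.5 RPM. The difference of RSM25 was therefore the same as the median of its chromosome to within its standard error. DNA copy number was not measured here.

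**Figure D5:**
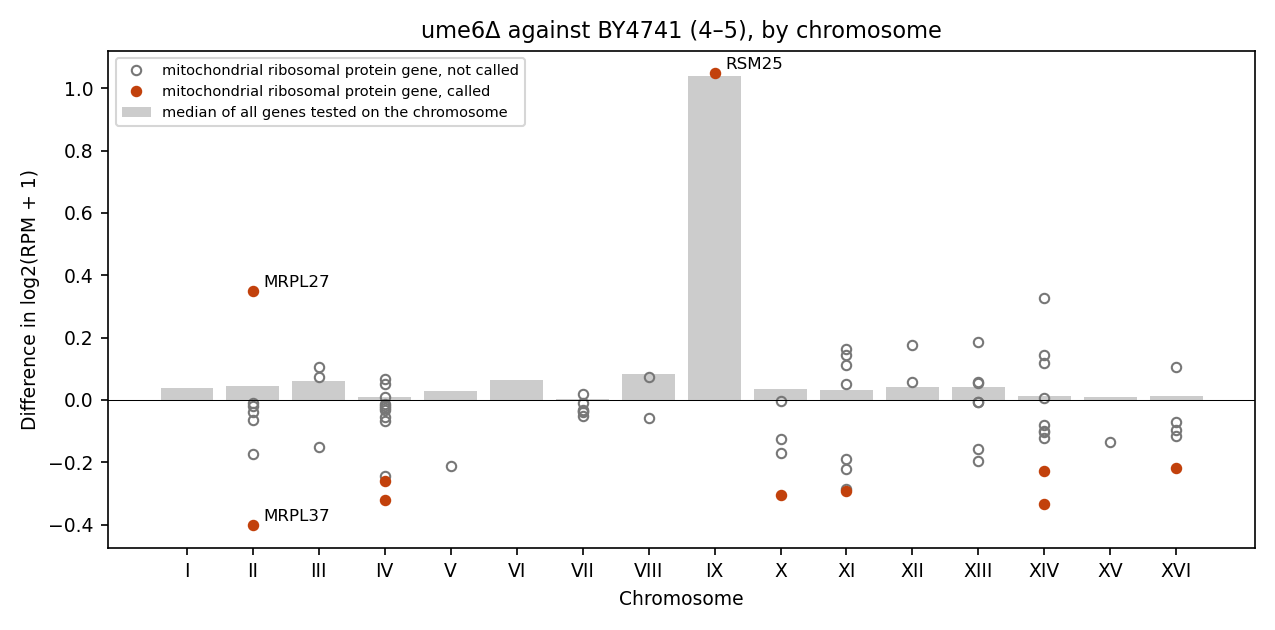
Difference in log2(RPM + 1) between ume6Δ and BY4741 cultures 4 and 5 by chromosome; grey bars are the median of all genes tested on the chromosome and circles the members, filled where called. The bar of chromosome IX stands at 1.04 with RSM25 at 1.05, and the other bars lie between 0.00 and 0.08.

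The other rise in ume6Δ was MRPL27, a large-subunit protein on chromosome II. MRPL27 had 42.6, 39.8 and 39.1 RPM in ume6Δ, against 29.4 and 33.8 RPM in BY4741 (0.35 ± 0.09, adjusted p = 0.00917, limma). The groups did not overlap, but the call was lost without BY4741 culture 4 (0.25, adjusted p = 0.0889, limma). MRPL27 was also the only member with GGCGGC, the core of the URS1 site bound by Ume6, within 250 bases before its start codon (either strand, 1.4% of the members), against 251 of 6007 genes (4.2%). Its upstream region in R64, with the core in capitals, is shown for that reason.
MRPL27, chrII:767990-768239, plus strand: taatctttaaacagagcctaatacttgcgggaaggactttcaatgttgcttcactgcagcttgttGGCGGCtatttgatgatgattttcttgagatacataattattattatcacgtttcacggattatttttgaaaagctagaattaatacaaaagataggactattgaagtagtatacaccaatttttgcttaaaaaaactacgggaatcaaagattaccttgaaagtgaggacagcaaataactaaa
Outside chromosome IX, 130 of 231 genes with this core upstream rose in ume6Δ (56.3%, median 0.41), against 18.8% of 5202 genes without it (median 0.02). A match describes the letters of the window and not a bound site. MRPL27 rose in ΔU as well (0.77 ± 0.09), and what part the core has in its ume6Δ level was not tested.

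The members that fell in ume6Δ did so by less than 0.5 on the log2 scale. MRPL37 had 17.5, 16.7 and 15.4 RPM in ume6Δ, against 20.4 and 23.9 RPM in BY4741 (-0.40 ± 0.12, adjusted p = 0.0183, limma). MRPS12 had 57.4, 56.6 and 51.0 RPM in ume6Δ, against 65.1 and 74.1 RPM in BY4741 (-0.33 ± 0.08, adjusted p = 0.00509, limma). In both genes every ume6Δ culture lay below both controls. MRPL35, a large-subunit protein, fell by 0.32, RSM26, a small-subunit protein related to superoxide dismutases, by 0.31, and MRPL31 by 0.29. RSM24 fell by 0.26, MRPS18, the counterpart of bacterial S11, by 0.23 and MRPS16 by 0.22. Without BY4741 culture 5 only 4 members were called, 2 of them lower, and MRPL37, MRPS12, MRPL35, MRPL31 and RSM24 lost their call; without ume6Δ culture 2 there were 6 calls. Without ume6Δ culture 3 the calls of MRPL37 (adjusted p = 0.0656) and MRPL31 (0.0752) were lost (limma). The shares over all genes in these refits are not given here. Over all genes TMM scaling lowered the share of calls that were higher to 56.2%, against 67.1% as deposited. It gave 2 members higher (2.9%) and 12 lower (17.4%), beside 20.7% of all genes tested higher and 16.1% lower.

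Of 34 nuclear genes of the respiratory chain and ATP synthase 16 rose in ume6Δ and 0 fell (median 0.25), among them SDH1 (0.75) and CYC1 (1.15), and 14 rose under TMM scaling. Of the 12 mitochondrial ribosomal proteins with other symbols 0 rose and 0 fell by limma, with 2 at an unadjusted p under 0.05, and edgeR called 2 lower. Translation factors and assembly genes were close to the background of 23.1% higher and 11.3% lower. Of 22 translation factors 4 rose (18.2%) and 2 fell (9.09%), the largest rises being those of MEF2 (2.05) and the methionyl-tRNA formyltransferase gene FMT1 (1.68). Of 17 assembly genes 4 rose (23.5%) and 1 fell (5.88%), among them RPM2 (0.90), the protein part of mitochondrial RNase P, and MAM33 (0.84), which lies on chromosome IX, where the median was 1.04.

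Set directly against each other, ume6Δ and ΔU differed over almost the whole set. In ume6Δ 67 of the 69 members were lower than in ΔU and 1 was higher, beside 28.7% of all genes tested that were lower and 20.1% higher (48.8% in either direction), with a median of -0.64. TMM scaling turned the split over all genes to 57.8% of calls higher, against 41.2% as deposited, and left the median of the members at -0.55. The higher one was RSM25 (0.40 ± 0.08, adjusted p = 0.00113, limma), with 88.7, 78.9 and 85.4 RPM in ume6Δ, against 55.5, 66.0 and 69.7 RPM in ΔU. The median of chromosome IX in this comparison was 0.85. RSM22 was not called, at 58.3, 59.6 and 58.7 RPM in ume6Δ, against 59.7, 66.2 and 51.9 RPM in ΔU (-0.00 ± 0.08). The lowest were MRPL31 (-0.99), MRP17, the counterpart of bacterial S6 (-0.94), MRP2 (-0.91), MRPL23, the counterpart of L13 (-0.86) and MRPL44 (-0.85). MRPL31 had 60.1, 48.4 and 49.6 RPM in ume6Δ, against 107, 102 and 106 RPM in ΔU.

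No member was called in pho4Δ or pho84Δ, where few genes were called at all. In pho4Δ 0 of 69 rose or fell, with a median of -0.05, beside 0.223% of all genes tested called in either direction (0.0514% higher and 0.171% lower). An unadjusted p under 0.05 (limma) was met by 5 members, beside 663 of all 5840 genes tested, and edgeR called 0 members. In pho84Δ 0 of 69 rose or fell, with a median of -0.09, beside 0.291% of all genes tested (0.274% higher and 0.0171% lower). An unadjusted p under 0.05 (limma) was met by 15 members, beside 686 of all 5840 genes tested, and edgeR called 0 members. Of the 69 differences 15 were above 0, beside 3305 of the 5840, and the median over all genes tested was 0.02. Short genes were lower in pho84Δ outside the set too: rho with coding length was 0.51 over the members and 0.37 over 5569 other genes. At up to 400 coding bases the median was -0.29 for members and -0.13 for other genes. It was -0.15 and -0.09 at 401 to 600, and -0.04 and 0.06 at over 1000. What part length has in the pho84Δ values was not tested. Both strains are set against the same pair of BY4741 cultures, so their values are not independent of each other. Between pho4Δ and pho84Δ themselves 0 members differed, beside 0.497% of all genes tested (0.0171% higher and 0.479% lower), with 0 at an unadjusted p under 0.05 and 0 by edgeR, and the median was 0.03.

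MRPL37 stood lowest in both. It had 14.8 and 13.5 RPM in pho4Δ (-0.61 ± 0.13, adjusted p = 0.105, limma) and 13.6 and 14.5 RPM in pho84Δ (-0.62 ± 0.13, adjusted p = 0.0784, limma), against 20.4 and 23.9 RPM in BY4741. Neither strain's cultures overlapped with BY4741, and the difference passed the threshold in both when BY4741 culture 4 was left out (adjusted p = 0.0446 in pho4Δ and 0.0275 in pho84Δ, limma). RSM19 followed with 14.3 and 13.0 RPM in pho4Δ (-0.34 ± 0.17) and 13.5 and 11.7 RPM in pho84Δ (-0.45 ± 0.17), against 16.0 and 19.1 RPM in BY4741, and was not called in either (adjusted p = 0.478 and 0.327, limma).

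In series 1 the members differed little from BY4741. In ΔP 0 of 69 were called, beside 9.47% of all 5775 genes tested (5.8% higher and 3.67% lower). The median was -0.03, against 0.06 over all genes tested. An unadjusted p under 0.05 (limma) was met by 1 member, beside 1646 of the 5775 genes. That member was MRPL35, whose levels in ΔP were 41.7, 43.2 and 44.1 RPM, against 49.8, 55.7 and 49.6 RPM in BY4741 (-0.26 ± 0.08, adjusted p = 0.0748, limma). MRPL35 was called lower by edgeR (-0.32, adjusted p = 0.0276). With TMM scaling 42.3% of the calls over all genes were higher in ΔP, against 61.2% as deposited, and in Tpho84-Tcyc1 33.1%, against 55.4%. PUF3 mRNA stood in the ΔP cultures at 73.4, 36.2 and 59.4 RPM, against 24.2, 20.3 and 35.0 RPM in BY4741.

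The ΔP cultures were unlike each other. MRP2 had 35.8, 78.5 and 43.2 RPM in ΔP, against 59.7, 56.7 and 62.8 RPM in BY4741, and MRPL39 had 34.5, 65.4 and 35.4 RPM, against 50.0, 42.0 and 43.5 RPM. In both genes culture 2 lay above all BY4741 cultures and the other ΔP cultures below them. Cytosolic ribosomal protein genes summed to 214388, 271569 and 201303 RPM in ΔP, against 250226, 245227 and 244027 RPM in BY4741, so culture 2 stood apart there as well. Without that culture 1 member rose, MRPL24 (0.25), and 7 fell: MRP2 (-0.59), MRPL33 (-0.41), MRPL39 (-0.36), MRPL37 (-0.35), MRPL49 (-0.32, adjusted p = 0.0284), MRPL23 (-0.29) and MRPL35 (-0.26). In the same fit 22.7% of all genes tested were higher and 9.8% lower. The largest of these, MRP2, had an adjusted p of 0.00137 (limma).

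In Tpho84-Tcyc1 a single member rose, MRP8, and 0 fell, beside 4.42% of all genes tested that rose and 3.55% that fell (7.97% in either direction). MRP8 had 188, 194 and 198 RPM in Tpho84-Tcyc1, against 158, 147 and 158 RPM in BY4741 (0.32 ± 0.09, adjusted p = 0.0468, limma). The groups did not overlap, yet the adjusted p lay between 0.0879 and 0.203 when any library of the comparison was left out and was 0.108 with TMM scaling. The median of the members was 0.08, against 0.06 over all genes tested. Between ΔP and Tpho84-Tcyc1 0 members were called, with a median of -0.09, beside 0.312% of all genes tested (0.242% higher and 0.0693% lower). An unadjusted p under 0.05 (limma) was met by 10 members, beside 513 of all 5775 genes tested, and edgeR called 0 members. Without ΔP culture 2 the same comparison gave 6 members lower in ΔP, beside 3.13% of all genes tested that were lower and 6.34% that were higher, led by MRP2 (-0.46, adjusted p = 0.0137, limma).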

How the data were processed

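The deposited table holds RPM (reads scaled to a fixed library total) that the authors computed per gene for 21 libraries; per the labels' protocols RNA was isolated with a yeast RNA kit and libraries were made from purified mRNA with a stranded kit. The submitters' processing notes name HISAT2, featureCounts and edgeR; versions, roles, genome build, annotation and strand setting are not given in the sources used here. Of 7127 features 7123 had values. Every value was a whole number of reads within 0.01 reads (100.0% of values), so reads were recovered; 1 read was worth 0.0201 to 0.0911 RPM and depth was 10.98 to 49.8 Mreads, which limits precision for low genes.

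BY4741 cultures 1 to 3 were placed in series 1 and 4 and 5 in series 2 from their numbers and the design text. Each series was fitted by itself with limma 3.58.1 (R 4.3.3) on log2(RPM + 1), 1 mean per group, variances following the mean, for genes at 1 RPM or more in at least 3 (series 1) or 2 libraries (series 2, and the fit of all 21 for the 2 BY4741 groups). Adjustment was by Benjamini-Hochberg across all genes tested, with a threshold of 0.05. Alternatives were a pseudocount of 0.25 RPM, no filter, TMM rescaling, edgeR 4.0.16's quasi-likelihood test on the recovered reads, fits of the compared groups only, the other series' BY4741, a replicate block, and leaving out each library. The fits were tested on simulated counts. Genes were named by a rule: the 5 largest rises and 5 largest falls among called members whose groups did not overlap and whose mean log2(RPM + 1) was at least 3, the 5 highest and lowest levels per kb, and a fixed set of proteins of known role; others were named after their values were seen. The members, lists and motifs were chosen with earlier results of these data known. Names, coding lengths and sequences are RefSeq's for R64, and coordinates are that build's; the authors' own build was not used here.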

Additional observations from a re-analysis of the deposited data

How the results depend on the processing

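Among recomputed counts of called members 24 moved, by more than 1.5 times or to or from 0, and 88 did not. A move to or from 0 can be a single gene. Among recomputed medians 21 moved by more than the spread between cultures and 91 did not. Among values of the members named by rule 549 kept their direction and call, 50 lost the call and 2 changed sign. With TMM rescaling the count was 1 in ΔP (median -0.0912) and 0 in Tpho84-Tcyc1 (0.0143), and the median was 0.423 in ΔU and -0.548 for ume6Δ against ΔU. With edgeR the count was 1 in ΔP (-0.0886) and 0 in Tpho84-Tcyc1 (0.0129), and the median was 0.429 in ΔU and -0.574 for ume6Δ against ΔU. Without the filter the count in Tpho84-Tcyc1 was 0. Against BY4741 of the other series the counts were 20 in ΔP (median 0.0846), 27 in Tpho84-Tcyc1 (0.175), 32 in ume6Δ (-0.144), 22 in pho4Δ (-0.133) and 23 in pho84Δ (-0.179), and the median in ΔU was 0.433; MRPL39 in ΔU became -0.224 and RSM24 in ume6Δ 0.0139. Between the BY4741 groups themselves 37.1% of all genes tested were called, and the shares over all genes in these fits are not given here. The counts are therefore not read as particular to the members, and the cause of these shifts was not tested.

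Leaving out 1 library gave counts of 0 to 8 in ΔP (medians -0.0646 to 0.0129), 0 in each case in Tpho84-Tcyc1, 61 to 67 in ΔU (0.478 to 0.638), 4 to 11 in ume6Δ, 0 to 1 in pho4Δ (-0.106 to -0.0254), 0 to 1 in pho84Δ (-0.146 to -0.0573), 0 to 6 for ΔP against Tpho84-Tcyc1 and 10 to 18 between the BY4741 groups (-0.13 to -0.0509, both 10 and -0.0509 without culture 5). Apart from the fits without ΔP culture 2, the shares over all genes in these refits are not given here. These counts are therefore not read as particular to the members. Same-numbered libraries did not deviate together in every pair of any comparison. With the replicate block 4 members were called in Tpho84-Tcyc1 (MRP8, MRPL19, MRPL22 and MRPL28), and no other count moved. For pho4Δ against pho84Δ, where same-numbered libraries correlated at -0.19, a block with crossed numbers, added after the data were seen, called 0 members. No paired analysis was possible for ΔU, ume6Δ, pho4Δ and pho84Δ against BY4741 because the BY4741 cultures of series 2 carry other numbers. Every member had at least 188 reads in every library.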
